A study of Mus musculus with 4 samples.

Results

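Macrophages live in every fat depot, and the genes described here encode the receptors and the growth factor by which the tissue-resident kind is recognised and kept. The set was a list of symbols with no threshold on the values, drawn up with earlier results of these data known, and its 10 genes were Csf1, Csf1r, Cx3cr1, Adgre1, Cd68, Mrc1, Cd163, Folr2, Mertk and Timd4, of 22913 genes listed in each library. Dermal white adipose tissue (dWAT), the fat layer around the lower ends of hair follicles (HFs), was microdissected from the skin of C57BL/6 mice and sequenced as 1 library for each of 4 groups. OTD was dWAT of old mice of 18 months in telogen, the resting phase of the hair cycle, and YTD that of young mice of 2 months in telogen. OAD and YAD were dWAT of old and young mice in anagen, the growth phase, which was induced by depilation in both. The age field of the labels gives 18 months for YTD and 2 months for OAD, against their titles, and the titles were followed. The study states that dWAT of 20 mice per group was used, and whether all of it was pooled into the library is not given in the sources used here. There are no replicates, so no difference below carries a p-value or a spread between samples. The intervals given are 95% intervals of counting error, taken from estimated fragments, and do not stand for variation between mice.

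Resident macrophages depend on colony stimulating factor 1, encoded by Csf1 and made mainly by neighbouring stromal cells, which acts through its receptor tyrosine kinase CSF1R on the macrophage. On their surface they carry the adhesion receptor F4/80 (Adgre1), the mannose receptor (Mrc1), the haemoglobin scavenger receptor CD163 and a folate receptor (Folr2), and they remove dying cells through receptors such as MERTK and TIM-4 (Timd4). Folr2, Cd163, Timd4 and Lyve1 are widely used to mark long-lived resident cells, often those beside vessels, while Cd68 marks the endolysosomes of phagocytes in general and Cx3cr1, the fractalkine receptor, is shared with monocytes.

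All values are FPKM, read fragments per kilobase of gene and per mapped read total, as the authors deposited them. A difference between libraries is given as that of log2(FPKM + 1), which understates differences of low genes, and genes past 1 in either direction are called changed. The depth was estimated at 17400000 to 24300000 fragments per library, a rough figure, and the value that 3 fragments would give served as floor. The libraries differed in composition. Mitochondrially encoded genes held 52.7% and 44.7% of the summed FPKM in OTD and YTD, but 18.3% and 14.4% in OAD and YAD. Adipocyte markers were high in all libraries, with 1220 to 4420 FPKM summed over 8 genes. Markers of skeletal muscle summed to 7360 to 64500 FPKM over 5 genes, and keratinocyte markers to 53.6 and 84.7 in the telogen libraries against 1490 and 1050 in OAD and YAD. The libraries thus held markers of these other tissues as well. In such bulk samples, fewer macrophages and less RNA per macrophage cannot be told apart.

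The sequences around the start sites of 4 members, among them the member changed with age as deposited (Cd68) and 2 that went the other way (Cd163 and Folr2), are shown to let their promoters be compared. Each window runs from 250 bases before to 50 bases after the start site on build GRCm38.p6 and is taken from RefSeq, where 8 of the 10 members had a window and Folr2 had 2. The one printed for Folr2 is that at the end of the gene span in the files. Capitals mark 2 motifs, searched on both strands. GAGGAA is a core of sites bound by PU.1, the master transcription factor of macrophages, and TGACTCA is that of AP-1.
Cd68, chr11:69666121-69666420, minus strand: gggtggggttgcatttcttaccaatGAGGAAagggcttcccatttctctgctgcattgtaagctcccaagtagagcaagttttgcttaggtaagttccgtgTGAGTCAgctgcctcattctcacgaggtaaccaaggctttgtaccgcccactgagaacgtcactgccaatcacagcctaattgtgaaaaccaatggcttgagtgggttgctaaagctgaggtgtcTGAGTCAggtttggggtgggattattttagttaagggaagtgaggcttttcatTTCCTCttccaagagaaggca
Mrc1, chr2:14229164-14229463, plus strand: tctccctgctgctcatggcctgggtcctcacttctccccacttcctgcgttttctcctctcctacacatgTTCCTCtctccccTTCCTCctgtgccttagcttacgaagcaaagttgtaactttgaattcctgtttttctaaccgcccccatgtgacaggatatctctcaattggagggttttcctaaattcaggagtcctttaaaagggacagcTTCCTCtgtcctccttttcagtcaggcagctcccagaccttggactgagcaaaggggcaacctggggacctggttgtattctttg
Folr2, chr7:101845282-101845581, minus strand: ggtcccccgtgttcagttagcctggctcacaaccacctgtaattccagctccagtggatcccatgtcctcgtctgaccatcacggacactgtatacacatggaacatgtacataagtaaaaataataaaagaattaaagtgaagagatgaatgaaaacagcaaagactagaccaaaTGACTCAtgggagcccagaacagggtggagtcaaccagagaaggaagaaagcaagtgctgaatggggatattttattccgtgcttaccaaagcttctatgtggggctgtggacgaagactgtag
Cd163, chr6:124304401-124304700, plus strand: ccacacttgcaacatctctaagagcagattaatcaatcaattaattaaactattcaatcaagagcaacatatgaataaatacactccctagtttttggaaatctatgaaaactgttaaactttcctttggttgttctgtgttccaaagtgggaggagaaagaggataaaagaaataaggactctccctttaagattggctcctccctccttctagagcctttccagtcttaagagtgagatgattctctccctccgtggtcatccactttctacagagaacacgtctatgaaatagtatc

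GAGGAA was found in 2 of the 9 member windows, those of Cd68 with 2 matches and Mrc1 with 3. The letters occur in 28.3% of all 32851 promoter windows, so 2 of 9 is not above the share of promoters in general. TGACTCA was found 2 times in the window of Cd68 and 1 time in that of Folr2, and in 5.2% of all windows. No match of one motif overlapped a match of the other. The window of Cd163 held neither. A match is a run of letters and does not show that the factor was bound.

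Csf1 (ENSMUSG00000014599, chromosome 3 from 107741048 to 107760469) was at 12.6 FPKM (OTD) and 12.9 (YTD) in telogen and 4.06 (OAD) and 3.97 (YAD) in anagen. The growth factor thus differed by hair cycle phase and little by age, where its sign turned with the scaling. In telogen it was 1.02-fold higher in YTD, with an interval of 0.888 to 1.17, and in anagen 1.02-fold higher in OAD, with an interval of 0.802 to 1.31. Between phases it was 3.25-fold higher in YTD than YAD (2.63 to 4.03) and 3.11-fold higher in OTD than OAD (2.59 to 3.74).

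Its receptor Csf1r (ENSMUSG00000024621, chromosome 18 from 61105572 to 61132149) was at 15.5 FPKM (OTD) and 10.3 (YTD) in telogen and 3 (OAD) and 3.43 (YAD) in anagen. In telogen it was 1.5-fold higher in the old library, with an interval of 1.35 to 1.67, while its ligand was level. In anagen the interval of 0.927 to 1.4 for its 1.14-fold higher value in YAD included 1. The FPKM of ligand to receptor within a library, a ratio that no scaling between libraries can move, was 0.817 for OTD against 1.25, 1.35 and 1.16 for YTD, OAD and YAD. It was lowest in OTD, and its 1.53-fold difference from YTD had an interval of 1.28 to 1.83.

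Of 6 other ligands and receptors of this cytokine family, none changed with age in either phase. Il34, which encodes the second ligand of CSF1R, was at 11.8 FPKM (OTD) and 10 (YTD) in telogen and 3.67 (OAD) and 3.52 (YAD) in anagen, close to Csf1 in each library. Both ligands of the receptor therefore had the same order by phase. Among the family, the highest difference in telogen was that of Csf3r, the receptor of granulocyte colony stimulating factor, at 0.58 log2, and the lowest that of Csf3 at 0.07. In anagen, differences ran from 0.00 for Csf3r to 0.24 for Csf2rb. The cytokine genes Csf2 and Csf3 stayed under 0.1 FPKM throughout.

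Cx3cr1 (ENSMUSG00000052336, chromosome 9 from 119901616 to 120068283) was low, at 0.593 FPKM (OTD) and 0.499 (YTD) in telogen and 0.0386 (OAD) and 0.0153 (YAD) in anagen. The values in OTD and YTD came from roughly 12.5 and 9.91 fragments, and their 1.19-fold difference had an interval of 0.496 to 3.12. Both anagen values were under the floor, so no fold between ages is given. The value in YTD was at least 3.09-fold higher than in YAD, set against the floor of 3 fragments of YAD, and that in OTD was 15.4-fold higher than in OAD (2.4 to 678), where about 0.998 fragments were seen.

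**Figure D1:**
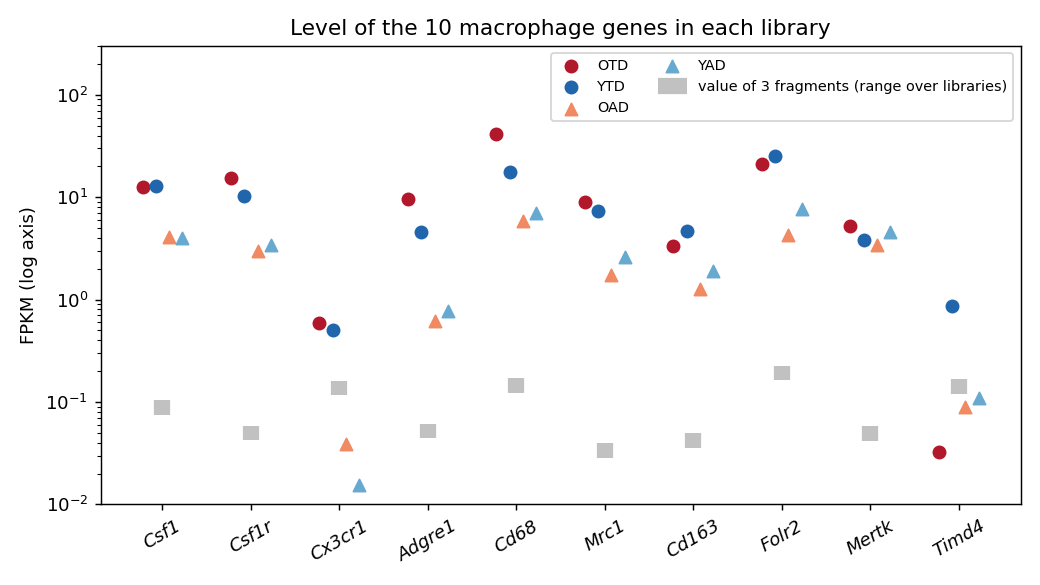
FPKM (log axis) of each member in the 4 libraries, 1 point per library, with circles for telogen, triangles for anagen and grey marks for the value of 3 fragments. Telogen points lie above anagen points for 8 of the 10 genes, Mertk being nearly level, and Timd4 is above its floor in YTD alone.

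Adgre1 (ENSMUSG00000004730, chromosome 17 from 57358686 to 57483529), the gene of F4/80, was at 9.68 FPKM (OTD) and 4.59 (YTD) in telogen and 0.614 (OAD) and 0.78 (YAD) in anagen. In telogen it was 2.11-fold higher in OTD (1.81 to 2.47). In anagen it was 1.27-fold higher in YAD, and the interval of 0.791 to 2 included 1. It had the widest spread by phase of the members above the floor in all libraries, 5.88-fold in young mice (4.17 to 8.52) and 15.8-fold in old mice (11.4 to 22).

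Cd68 (ENSMUSG00000018774, chromosome 11 from 69664213 to 69666153) had the highest telogen value in old mice of the set, 41.6 FPKM in OTD against 17.5 in YTD, 5.9 in OAD and 7.05 in YAD. The difference in telogen was 2.37-fold (2.09 to 2.71) and 1.2 log2, the only member changed with age as deposited. In anagen Cd68 was 1.19-fold higher in YAD, with an interval of 0.93 to 1.52. Adgre1, at 0.93 log2 in telogen, stood just short of the threshold and Cd68 just past it.

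The scavenger receptors divided. Mrc1 (ENSMUSG00000026712, chromosome 2 from 14229392 to 14332057), which takes up mannose-bearing glycoproteins, was at 8.91 FPKM (OTD) and 7.25 (YTD) in telogen and 1.74 (OAD) and 2.58 (YAD) in anagen. It was 1.23-fold higher in the old library in telogen (1.1 to 1.37) and 1.49-fold lower there in anagen (1.21 to 1.82). Cd163 (ENSMUSG00000008845, chromosome 6 from 124304651 to 124330527), which clears haemoglobin bound to haptoglobin, was at 3.33 FPKM (OTD) and 4.67 (YTD) in telogen and 1.27 (OAD) and 1.91 (YAD) in anagen. It was lower in the old library in both phases, 1.4-fold in telogen (1.17 to 1.67) and 1.5-fold in anagen (1.14 to 1.96).

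Folr2 (ENSMUSG00000032725, chromosome 7 from 101839990 to 101845331), a folate receptor anchored in the membrane by a lipid, was at 21.2 FPKM (OTD) and 25 (YTD) in telogen and 4.24 (OAD) and 7.73 (YAD) in anagen. It had the highest level of the members in both young libraries. Like Cd163 it was lower in the old library in both phases, 1.18-fold in telogen (1.01 to 1.38) and 1.82-fold in anagen (1.34 to 2.48). Over the settings tried its telogen log2 difference ran from -0.24 to -0.05, so it was close to level in some. Its anagen difference of -0.74 log2 was the largest in size between ages in that phase among the members.

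Mertk (ENSMUSG00000014361, chromosome 2 from 128698956 to 128802894), a receptor tyrosine kinase for the uptake of apoptotic cells, was at 5.27 FPKM (OTD) and 3.82 (YTD) in telogen and 3.39 (OAD) and 4.61 (YAD) in anagen. In young mice it was 1.21-fold higher in YAD than YTD (0.997 to 1.46), and in old mice 1.55-fold higher in OTD than OAD (1.31 to 1.84), where its log2 difference ran from -0.78 to -0.01 over the settings tried. With age it was 1.38-fold higher in OTD than YTD (1.15 to 1.64) and 1.36-fold higher in YAD than OAD (1.13 to 1.63).

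Timd4 (ENSMUSG00000055546, chromosome 11 from 46810800 to 46844332), whose product binds phosphatidylserine on dying cells, was at 0.0325 FPKM (OTD) and 0.857 (YTD) in telogen and 0.0898 (OAD) and 0.109 (YAD) in anagen. Only YTD was above the floor, with about 16.5 fragments against 0.665, 2.25 and 1.97 in the other libraries. The value in YTD was 26.3-fold that in OTD, with an interval of 2.64 to 712, and 7.84-fold that in YAD (1.76 to 67.1). The log2(FPKM + 1) difference between OTD and YTD, -0.85, was short of the threshold as deposited, and it reached -2.85 with a pseudocount of 0.1. Too few fragments were counted to give its size with any precision.

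Between old and young mice in telogen, 6 of the 10 members were higher and 4 lower in OTD. Their median was 0.18 log2, against -0.06 over 12982 genes that reached 1 FPKM in either library. For the 8 members that also reached 1 FPKM the median was 0.32. The 1 member changed, Cd68, stands beside 3.6% of 17230 genes changed in either direction, 1.67% higher and 1.93% lower in OTD. Members with an interval above 1 in OTD were Csf1r, Adgre1, Cd68, Mrc1 and Mertk, and those with an interval above 1 in YTD were Cd163, Folr2 and Timd4. The set thus did not move as a unit in telogen.

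In anagen, 8 members were lower and 2 higher in OAD, with a median of -0.18 log2 against 0.00 over 13068 genes that reached 1 FPKM. For the 7 members that also reached it the median was -0.35. None of the 10 members was changed, where 1.18% of 17613 genes were, 0.727% higher and 0.454% lower in OAD. Mrc1, Cd163, Folr2 and Mertk had intervals above 1 in favour of YAD. For Csf1, Csf1r, Adgre1 and Cd68 the interval included 1. Csf1r, Adgre1, Cd68, Mrc1 and Mertk thus had a higher value in the old library in telogen and a higher one in the young library in anagen, and whether the age difference itself differed between phases was not tested.

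**Figure D2:**
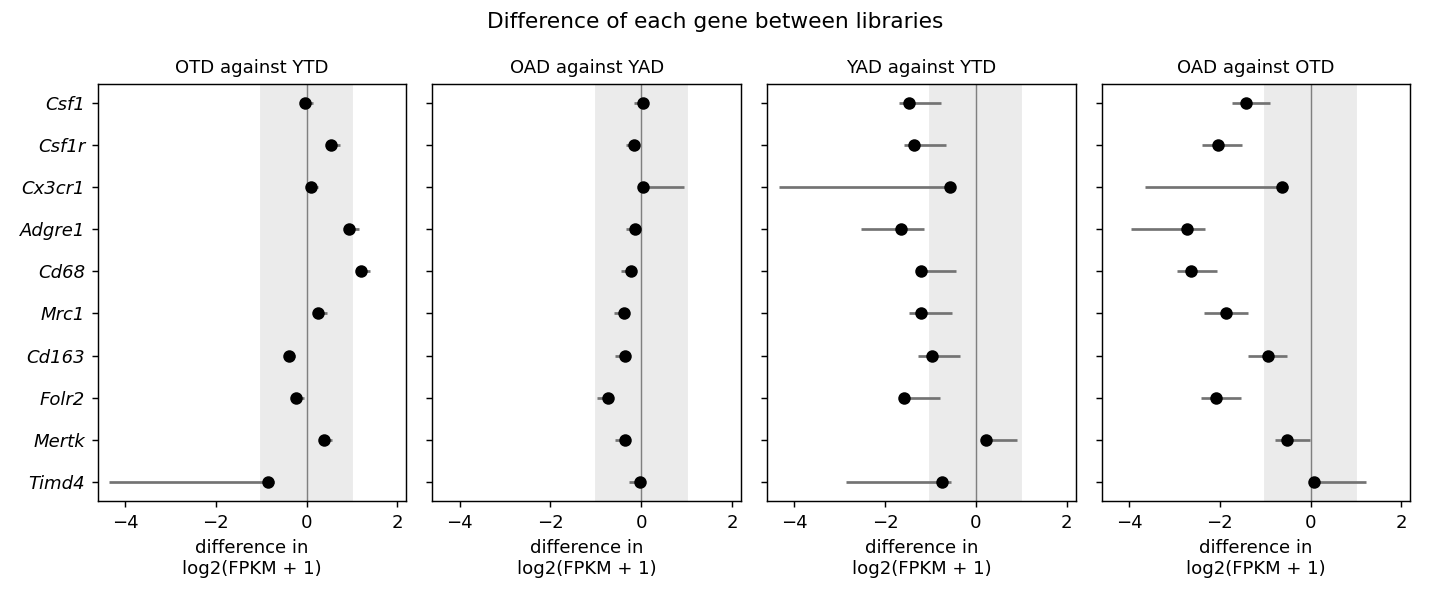
Difference in log2(FPKM + 1) of each member in the 4 comparisons, with points for the values as deposited, lines for the range over the other settings tried and grey for differences under 1 in size. In OTD against YTD, Cd68 alone lies past 1, while in both comparisons of anagen with telogen 6 of 10 points lie below -1.

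These ratios were chosen after the values were seen. The ratio of members within a library is free of any scaling between libraries. Since Cd68 had the highest OTD to YTD fold of the members, every ratio to it had to be lower in OTD. The directions below are therefore no result, and only the sizes differ between members. Relative to Cd68, Folr2 stood at 1.43 in YTD and 0.509 in OTD, a 2.8-fold difference of the ratios with an interval of 2.29 to 3.44. For Cd163 the ratio was 0.266 in YTD and 0.08 in OTD, 3.33-fold apart (2.67 to 4.14). For Mrc1 it was 0.413 and 0.214, 1.93-fold apart (1.63 to 2.29), and for Csf1r 0.589 and 0.371, 1.59-fold apart (1.34 to 1.88). Adgre1 kept near to Cd68, at 0.261 in YTD and 0.232 in OTD, with an interval of 0.917 to 1.38 for the 1.13-fold difference.

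Because Cd68 was the member with the highest value in OTD relative to YTD, the ratios were also set against Csf1r. Their directions follow from the folds already given for each member, so they are not a separate check. There, Folr2 was 1.77-fold lower in OTD (1.47 to 2.14) and Cd163 2.1-fold lower (1.71 to 2.58), while Cd68 was 1.59-fold and Adgre1 1.41-fold higher (1.17 to 1.7). In anagen Folr2 relative to Csf1r was 1.6-fold lower in OAD (1.1 to 2.32), and the intervals of Csf1, Adgre1, Cd68, Mrc1, Cd163 and Mertk included 1.

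**Figure D3:**
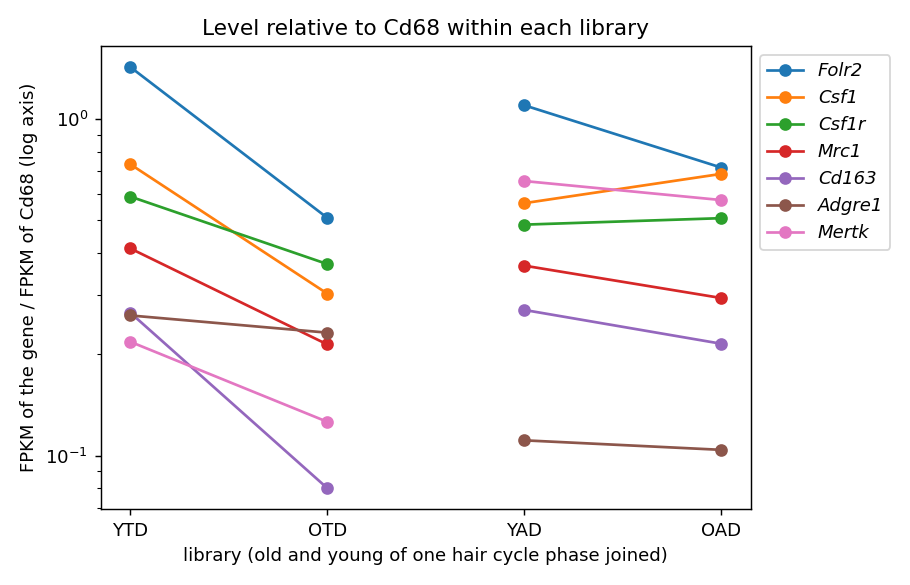
FPKM of 7 members divided by the FPKM of Cd68 in the same library (log axis), with lines joining young and old of one phase. Since Cd68 has the highest OTD to YTD fold of the members, all 7 ratios had to be lower in OTD than YTD, and they are so by 1.13-fold for Adgre1 to 3.33-fold for Cd163, while between YAD and OAD only Folr2 has an interval that leaves out 1.

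Between phases the members moved far more than between ages. In young mice 9 of 10 were lower in YAD than YTD, with a median of -1.2 log2 and 6 changed. Of 17622 genes 32.7% were changed, 16.7% lower and 16.1% higher in YAD. In old mice 9 of 10 were lower in OAD than OTD, with a median of -1.64 and 6 changed, beside 31.7% of 17712 genes, 15.6% lower and 16.1% higher in OAD. The 6 were Csf1, Csf1r, Adgre1, Cd68, Mrc1 and Folr2 in both, with differences from -1.2 to -1.65 in young and from -1.43 to -2.73 in old mice. The comparisons share no library, but each also sets depilated against undepilated skin, so phase and depilation cannot be told apart.

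The size of this difference depended on the scaling, since the summed FPKM was 1249613 and 1245973 in OTD and YTD but 814616 and 693715 in OAD and YAD. After rescaling to TPM the median of the members was -0.54 in young and -1.13 in old mice. In that scaling 1 and 5 members stayed changed, where 1161 and 1417 of all named genes were changed and lower. The median of all genes that reached 1 FPKM shifted to 0.77 and 0.58 in that scaling. Relative to that shift the members stood at -1.31 and -1.72, near the -1.24 and -1.7 of the values as deposited. This closeness was fixed in advance, since the scaling moves all genes of a library by the same factor, apart from the effect of the pseudocount.

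Markers of other cells of the fat layer were lower in the anagen libraries as well. Adipocyte markers had a median of -1.5 log2 in young and -1.4 in old mice, endothelial markers -1.53 and -1.9, mast cell markers -1.62 and -2.5 and fibroblast markers -1.1 and -2.79. The keratinocyte and melanocyte lists were higher in anagen, with medians of 3.71 and 5.46 in young and 4.94 and 5.14 in old mice. Set against the summed adipocyte markers of the same library, Csf1r stood at 0.319% in YTD and 0.281% in YAD, and at 0.35% in OTD and 0.182% in OAD. Cd68 stood at 0.542% in YTD and 0.577% in YAD, and at 0.942% in OTD and 0.359% in OAD. In young mice these 2 ratios to fat were closer across phases than in old mice. Adgre1 went from 0.142% in YTD to 0.0639% in YAD and from 0.219% in OTD to 0.0373% in OAD. In old mice Folr2 went from 0.479% in OTD to 0.257% in OAD, Mrc1 from 0.201% to 0.105% and Csf1 from 0.286% to 0.247%. Cd163 was nearly level, at 0.0754% in OTD and 0.0772% in OAD, and Mertk was higher in OAD, at 0.119% and 0.206%. In young mice Mertk went from 0.118% in YTD to 0.378% in YAD. Folr2 there went from 0.773% to 0.634%, Mrc1 from 0.224% to 0.212%, Csf1 from 0.399% to 0.325% and Cd163 from 0.144% to 0.157%. Fabp4 was the largest part of the summed adipocyte markers, at 2880 of 4420 FPKM in OTD. The part of these cell markers in the members' differences was not tested.

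Of the members above the floor in all libraries, Mertk rose most in anagen relative to Csf1r, a ratio that needs no scaling. Relative to Csf1r it was at 0.37 in YTD and 1.35 in YAD, 3.64-fold apart (2.81 to 4.71), and at 0.341 in OTD and 1.13 in OAD, 3.32-fold apart (2.64 to 4.18). Adgre1 went the other way by this ratio, 1.95-fold lower in YAD (1.32 to 2.94) and 3.06-fold lower in OAD (2.13 to 4.41). Cd163 was 1.97-fold higher in OAD than OTD (1.48 to 2.61), while its interval in young mice included 1. Tyro3, a related receptor of the same kinase family, was at 0.506 and 0.519 FPKM in OTD and YTD and at 6.31 and 5.88 in OAD and YAD, and the third relative Axl at 24.4, 17.5, 14.6 and 13.6 in OTD, YTD, OAD and YAD. The shared ligand gene Gas6 was at 156 and 198 FPKM in OTD and YTD against 52.7 and 45.7 in OAD and YAD. Pros1, the other bridging ligand, was at 35.4 and 20.2 FPKM in telogen and at 8.43 and 8.12 in anagen. The receptors and ligands of this family thus went different ways between phases, with Tyro3 higher and Gas6 and Pros1 lower in anagen.

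Of the 10 genes above 0 for phosphatidylserine receptors and bridging proteins, none was changed with age as deposited, and 1 was changed in telogen when rescaled by the median of ratios or to TPM without mitochondrial and muscle genes. In telogen 7 were higher in OTD, from -0.35 for Gas6 to 0.96 for Mfge8, which encodes a bridging protein and was at 122 FPKM in OTD and 62.5 in YTD. In anagen all 10 were higher in OAD, from 0.05 for Cd300lf to 0.37 for Stab1, a scavenger receptor, but 5 were higher and 5 lower in TPM. Havcr1, a relative of Timd4, was listed at 0 in every library.

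For the 11 perivascular resident macrophage genes the telogen median was 0.00, since 5 stood higher in OTD and 6 in YTD, and none changed. With other scalings the split was 6 and 5 or 5 and 6, and the median at most 0.01. Cbr2, a carbonyl reductase gene, was lowest at -0.51, with 46 FPKM in OTD and 65.9 in YTD, and Fcna, a ficolin gene, highest at 0.69, with 1.9 and 0.805. In anagen the median was -0.29, and 11 of 11 stood lower in OAD, or 10 when rescaled by the median of ratios. Some were close to level, with Clec10a at 9.78 FPKM in both OAD and YAD, Ccl24 at 0.349 and 0.376, and Vsig4 at 0 and 0.0366. Lyve1, a hyaluronan receptor also found on lymphatic vessels, was the 1 changed, by -1.24 log2, with 0.537 FPKM in OAD and 2.63 in YAD. Its telogen values were 3.21 in OTD and 4.52 in YTD. The lymphatic markers Prox1 and Flt4 differed by -0.11 and -0.15 in anagen (0.276 and 0.863 FPKM in OAD, 0.375 and 1.07 in YAD). In telogen they differed by 0.47 and 0.42. Ccl21a changed by 1.65 in telogen and differed by 0.36 in anagen. Between phases 7 of the 11 perivascular genes were changed and lower in YAD than YTD, and 9 of 11 in OAD than OTD, Pf4 most in both, by -2.1 and -2.9, beside 16.7% and 15.6% of all genes. In TPM these counts were 4 and 6, where 1161 and 1417 of all named genes were changed and lower. The medians of -1.4 and -1.46 became -0.66 and -1.09.

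General macrophage genes went the way of Cd68 and Adgre1. The old telogen library had the higher value for all 13, under each scaling tried, and the median was 0.52 log2. Beside 1.67% of all genes changed and higher in OTD, 2 of the 13 were changed. These were Mpeg1, which encodes a pore-forming protein of phagocytes, by 1.34, with 19.3 FPKM in OTD and 7.01 in YTD, and Tyrobp, the adaptor of many myeloid receptors, by 1.03, with 121 and 59.1. The lowest was Fcgr1 at 0.19. In anagen the median was -0.26, 12 of 13 stood lower in OAD under each scaling tried, and none was changed as deposited and 1 in TPM, from -0.85 for Tyrobp to 0.35 for Aif1. The 3 C1q genes, often used for resident cells, differed by 0.24 to 0.33 in telogen and by -0.53 to -0.2 in anagen. Between phases 11 of 13 were changed and lower in YAD than YTD and 13 of 13 in OAD than OTD, beside 16.7% and 15.6% of all genes. In TPM the counts were 8 and 13, where 1161 and 1417 of all named genes were changed and lower.

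Of 7 transcription factor genes of macrophages none was changed with age, beside 3.6% of all genes in telogen and 1.18% in anagen. The extremes in telogen were -0.23 for Nr1h3 and 0.66 for Irf8, and in anagen -0.42 for Id3 and 0.17 for Nr1h3. Spi1, the gene of PU.1, was at 10.1 FPKM (OTD) and 9.64 (YTD) in telogen and 1.55 (OAD) and 1.81 (YAD) in anagen, level with age in telogen while Cd68 differed 2.37-fold. Between phases Spi1 followed the members, with -1.92 in young and -2.12 in old mice. Maf went the other way, at 23.3 and 23.9 FPKM in OTD and YTD against 46 and 49.6 in OAD and YAD. It is also expressed in skin epithelium.

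Markers of other white blood cells in telogen are given beside the members, since several members are shared with them. The median of 6 monocyte markers was 0.42, with 5 of them higher in OTD. Plac8 changed by 1.28, with 118 FPKM in OTD and 47.7 in YTD, while Ly6c2 differed by -0.28. For 8 dendritic and Langerhans cell markers the median was 0.22, and Itgax, the gene of CD11c, changed by 1.58, with 3.59 FPKM in OTD and 0.532 in YTD. Cd207, which defines Langerhans cells, was at most 0.0805 FPKM. Neutrophil markers summed to 137 and 115 FPKM in OTD and YTD and to 141 and 58.2 in OAD and YAD, most of it S100a8, while S100a9 was at 11.7, 0.656, 11.2 and 1.26 FPKM in this order and Mpo was listed at 0 in every library. T cell and B cell markers summed to at most 2.39 FPKM in any library. Mast cell markers differed by a median of 0.36 in telogen and -0.34 in anagen. The medians of endothelial and fibroblast markers were 0.71 and 0.54 in telogen, with Emcn (1.13), Dcn (1.38) and Lum (1.03) changed, and 0.3 and -0.5 in anagen, with Col1a1 (-1.9) changed. Of the keratinocyte, melanocyte and muscle lists, Krt15 (-1.15) and Myh4 (-1.16) were changed with age in telogen and Krt14 (1.02) and Pmel (-1.03) in anagen, and Retnlg, a neutrophil gene, was changed in telogen (1.25). In anagen Plac8 (1.16), S100a8 (1.17) and S100a9 (2.43) were also changed. The part of these in the members' differences with age was not tested.

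**Figure D4:**
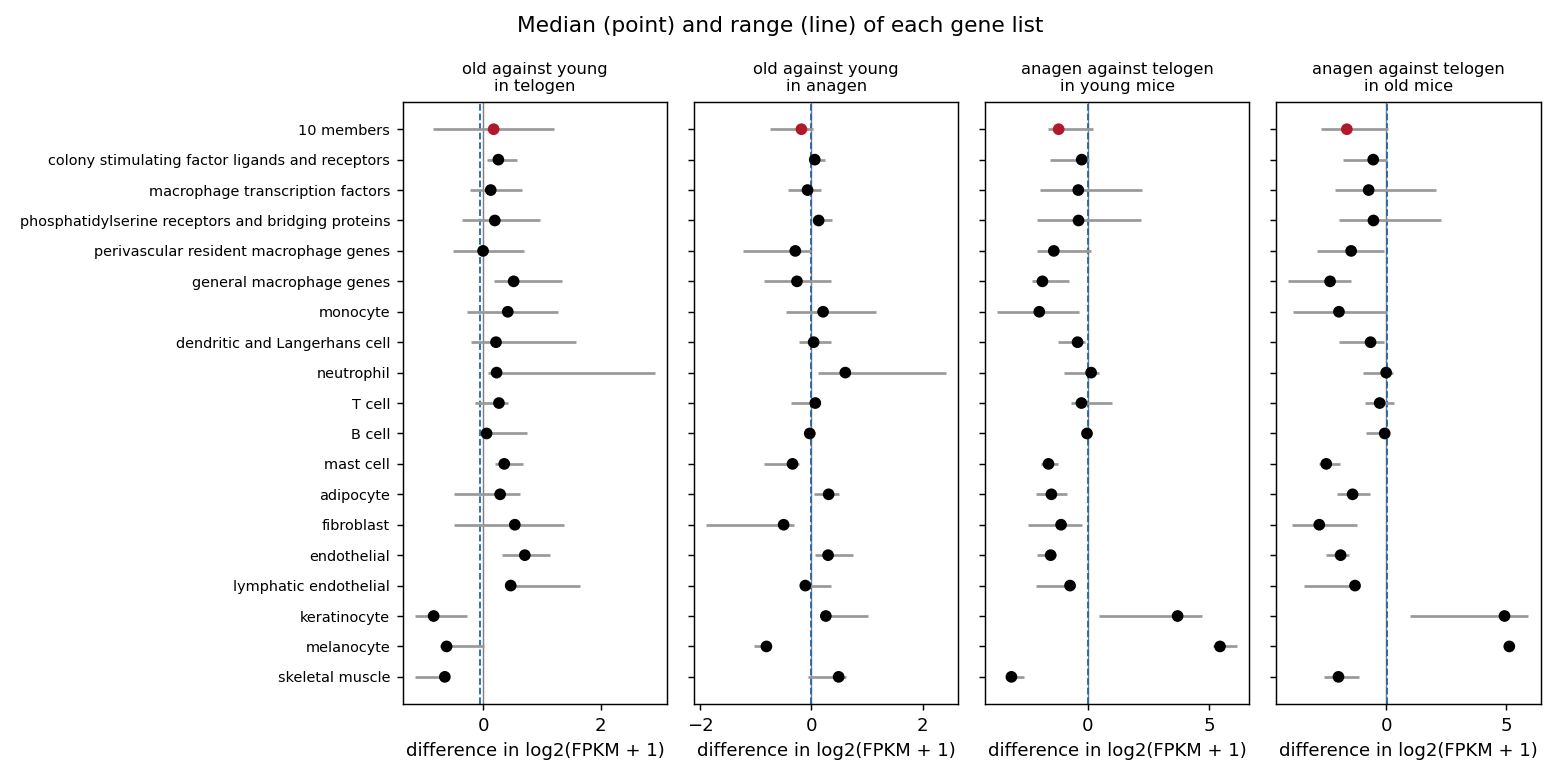
Median (point) and range (line) of the difference in log2(FPKM + 1) for the 10 members (red) and 18 other gene lists (black) in the 4 comparisons, with the dashed line at the median of all genes that reached 1 FPKM. In telogen general macrophage genes have a median of 0.52 between ages and perivascular genes 0.00, and in both comparisons by phase the adipocyte, endothelial, mast cell and fibroblast lists lie below the dashed line and keratinocyte and melanocyte lists above it.

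The 5 genes whose pattern over the 4 libraries came nearest to the mean of the 8 members with at least 1 FPKM were Serpinf1, Nkain4, Lrmp, Prx and Nrros, out of 13560 genes compared. Their distances, between centred log2(FPKM + 1) profiles, ran from 0.0468 for Serpinf1 to 0.105 for Nrros. Serpinf1, which encodes a secreted serpin, was at 56.4 FPKM (OTD) and 43.9 (YTD) in telogen and 15 (OAD) and 19.3 (YAD) in anagen. Nrros, which encodes a protein of myeloid cells that holds latent transforming growth factor beta, was at 9.69, 7.03, 2.02 and 2.45. Profiles over only 4 libraries are a coarse measure.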

How the data were processed

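Each of the 4 libraries came from microdissected mouse dWAT, with RNA of an integrity number above 7.5 as the study states. The authors deposited FPKM per gene, with position and length on GRCm38. The submitters' processing notes name bcl2fastq and TopHat2. The quantification tool, annotation and scaling are not given in the sources used here. Of the listed lengths 97% are multiples of 3, as for coding lengths. 21750 of 22166 Ensembl identifiers matched a symbol, and all 10 members did. GENCODE M21 gives the same span for 5 of the 10, and spans are printed as deposited.

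Differences were computed on log2(FPKM + 1) from single libraries with no test, and genes with a value above 0 in a library compared were counted. Fragments were estimated from the lowest FPKM of features of 2000 to 4000 bases. Intervals (95%, exact binomial for 2 libraries, exact conditional odds ratio for ratios) and floors of 3 fragments cover counting error only. The differences between ages, the depth estimate and the rescaling by the median of ratios were tested on simulated data. The intervals, floors, other scalings, profile distances and motif search were not. Members and gene lists were chosen with earlier results of these data known. All members are named, and of each other list those changed by at least 1 and the highest and lowest (between phases, lists of other cells are given as medians), with further genes named for their role after their values were seen. 1 of the 119 listed genes was not found. Some results of the gene lists are not reported here. Alternatives were pseudocounts of 0.1 and 0.01, a minimum of 1 FPKM, rescaling by the median of ratios, TPM, TPM without mitochondrial and muscle genes, and a 1.5-fold threshold. Python 3.11.15, numpy 2.4.6, pandas 2.3.3, scipy 1.17.1 and matplotlib 3.10.9 were used.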

Additional observations from a re-analysis of the deposited data

Results flagged for a closer look

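The difference between old and young mice had opposite signs in telogen and anagen for 6 members, with 1 library per group, and this difference between phases was not tested. On the log2(FPKM + 1) scale, Adgre1 stood at 0.93 in telogen and -0.14 in anagen, Cd68 at 1.2 and -0.22, Csf1r at 0.54 and -0.15, Mertk at 0.38 and -0.35, and Mrc1 at 0.26 and -0.39. Csf1 stood at -0.03 and 0.03, with intervals that included no difference in both phases. The anagen intervals of Adgre1, Cd68 and Csf1r also included no difference.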

How the results depend on the processing

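No paired analysis was possible because each group holds 1 library, and leaving out a library was likewise not possible. Of the values of single members under other settings, 170 stayed within the counting interval, 61 moved out of it, and no member changed by at least 1 switched sign. The sign of Csf1 between ages, near 0, turned with the scaling. In telogen between ages, the members changed numbered 3 with a pseudocount of 0.1 or 0.01, 3 in TPM without mitochondrial and muscle genes and 3 at the 1.5-fold threshold, against 1. All named genes changed there numbered 1007 higher and 900 lower with 0.1, and 1688 and 1439 with 0.01, against 263 and 292. In anagen 1 member passed the 1.5-fold threshold, against 0. All genes past the 1.5-fold threshold were not counted. Between phases in young mice the median of -1.2 became -1.62 and -1.64 with pseudocounts of 0.1 and 0.01 and -0.54 in TPM, where 1 member stayed changed. In old mice the median of -1.64 became -2.29 and -2.34 with these pseudocounts, -1.95 with the minimum of 1 FPKM, -1.13 in TPM and -1.99 in TPM without mitochondrial and muscle genes. Over all named genes in anagen against telogen, TPM gave 5654 higher and 1161 lower in young and 4716 and 1417 in old mice, against 2693 and 2743, and 2706 and 2596, as deposited. Between ages, TPM without mitochondrial and muscle genes gave 594 higher and 252 lower in telogen, against 263 and 292, and TPM gave 80 and 145 in anagen, against 103 and 65. Fragment numbers limit Cx3cr1 and Timd4 most, with at most 12.5 and 16.5 fragments in a library.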
